A study of Homo sapiens with 24 samples.

Results

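The 55 genes described here carry out DNA replication and prepare a cell for S phase. Their symbols were matched to the Ensembl identifiers of the 24 count files, which list 60675 genes, and all 55 were found and had counts enough to be tested in both cell lines. They were taken in 8 steps: origin licensing (6 genes), the replicative helicase (12), polymerases (9), the sliding clamp and its loaders (7), single-strand binding and flap ligation (5), nucleotide supply (5), S-phase control and fork protection (6) and chromatin assembly behind the fork (5).

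Before S phase, the origin recognition complex, CDC6 and CDT1 load a ring of MCM2 to MCM7 onto origins. At the start of S phase, cyclin E and its kinase help CDC45 and the GINS complex join that ring to make the active helicase, and polymerases, the PCNA clamp and its loader follow. Many of these genes are known targets of the E2F transcription factors, which are held back by the retinoblastoma protein outside S phase, and tumour lines in culture express most of them.

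RNA was sequenced from MDA-MB-231 and MDA-MB-436, established lines from triple-negative breast cancers, with 3 libraries in each of 8 groups. In each line, 1 group expressed a short hairpin RNA (shRNA) labelled as directed at MDM2 and its control expressed a non-targeting shRNA. Another group of each line received YX-2-30, an MDM2 PROTAC (a compound that brings its target to a ubiquitin ligase for degradation), and its control received the solvent DMSO. No agent was common to all 8 groups, and the dose, exposure time, hairpin number and hairpin sequence are not given in the sources used here. Nothing in the labels says that the replicates came from separate cultures, so p-values measure the spread between these libraries, which may be technical.

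Depth ran from 33.4 M to 174.7 M counts a library, with a median of 64.0 M. MDM2 RNA, the check of the shRNA label, was not called lower in any group by edgeR's quasi-likelihood test. With the shRNA label its log2 change was 0.55 ± 0.24 (SE, adjusted p = 0.137) in MDA-MB-231 and -0.11 ± 0.22 (adjusted p = 0.78) in MDA-MB-436, so these groups are named by their label. With the PROTAC it was 0.26 ± 0.24 (adjusted p = 0.513) in MDA-MB-231 and -0.61 ± 0.22 (adjusted p = 0.0573) in MDA-MB-436. Of 6 epithelial markers, CDH1 stayed under 1 CPM in both lines and KRT19 had a median of 0.29 CPM in MDA-MB-436. The summed epithelial level was 821 to 1045 CPM in the controls of MDA-MB-436 and 518 to 642 CPM in its treated libraries, and overlapped in MDA-MB-231 (1093 to 1158 and 1048 to 1118 CPM). KRT8 and KRT18 had the highest medians of the 6 in MDA-MB-436, 387 and 318 CPM. Gene by gene, 4 of the 6 rose and 2 fell there with the shRNA label, and 2 rose and 2 fell with the PROTAC. In MDA-MB-231 no epithelial marker rose, and 1 fell with the shRNA label and 2 with the PROTAC. The 3 markers of mesenchymal-like breast lines were detected in both lines, and 2 of 3 fell in each MDA-MB-231 comparison and 3 of 3 in each of MDA-MB-436. Their sum was 6804 to 8321 CPM in the controls and 4519 to 4822 CPM in the treated libraries of MDA-MB-231, and 1691 to 1976 and 1332 to 1472 CPM in MDA-MB-436. The 6 leukocyte markers summed to between 22.4 and 49.5 CPM per library. CD68 made up most of that sum, with a median of 36.8 CPM in MDA-MB-231 and 19.1 CPM in MDA-MB-436. PTPRC had medians of 3.9 and 0 CPM in the same order, and CD14 of 1.31 and 7.9 CPM. CD3E, part of the T cell receptor complex, had a median of 0 CPM in both lines. The 5 fibroblast markers, of which only COL1A1 reached 1 CPM and DCN was at 0 throughout, summed to 13.9 to 17.6 CPM in the controls of MDA-MB-231 and to 28.1 to 32.4 CPM in its treated libraries. The part of these markers in the results below was not tested. CPM are counts per M counts of a library, scaled by the TMM method within a line unless stated. The levels of all markers, and the summed levels of mitochondrial and histone genes, were taken from library totals without TMM scaling.

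Each treatment was compared with its own control by edgeR's quasi-likelihood test across all genes, and the words rose and fell are used for an adjusted p under 0.05. In MDA-MB-231, 31 of the 55 genes rose and 5 fell with the MDM2 shRNA label, where 11.1% of all genes tested rose and 11.6% fell (22.7% in either direction). With the PROTAC in that line, 31 rose and 4 fell, where 11.1% of all genes rose and 11.5% fell (22.6% together). In MDA-MB-436, 46 rose and 1 fell with the MDM2 shRNA label, against backgrounds of 16.0% and 14.4% (30.4% together). The PROTAC gave 47 that rose and 1 that fell there, against 17.3% and 15.1% (32.4% together). The median log2 change of the 55 genes was 0.26 and 0.26 in MDA-MB-231 (shRNA, then PROTAC) and 0.64 and 0.68 in MDA-MB-436, while that of all genes tested lay between -0.01 and 0.04. Of all genes called, 48.8, 49.1, 52.5 and 53.4% were higher, and with no scaling beyond library totals 68.0, 65.6, 72.8 and 70.9%, with the median of all genes then at 0.11, 0.08, 0.22 and 0.21.

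Rises of at least 2-fold were fewer: 3 genes in each comparison of MDA-MB-231 (1.79% and 1.51% of all genes) and 12 and 14 in MDA-MB-436 (6.62% and 7.45%). The 3 treated libraries lay above the 3 controls for 37 of the 55 genes with the shRNA label and 36 with the PROTAC in MDA-MB-231 (19.7% and 19.1% of all genes), and for 49 and 48 in MDA-MB-436 (27.3% and 21.6%). They lay below for 7 genes with the shRNA label (19.3% of all genes) and 7 with the PROTAC (20%) in MDA-MB-231, and for 1 gene in each comparison of MDA-MB-436 (24.7% and 20.8%).

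Shares of the raw counts were also higher. The 55 genes took 0.62 to 0.64% of all counts in the non-targeting libraries of MDA-MB-231 and 0.801 to 0.821% in those labelled MDM2 shRNA. With DMSO the share was 0.626 to 0.629%, and with the PROTAC 0.791 to 0.806%. Among the MDA-MB-436 libraries the share was 0.585 to 0.595% with the non-targeting shRNA and 1.055 to 1.071% with the MDM2 shRNA label. DMSO gave 0.58 to 0.598% in that line and the PROTAC 1.021 to 1.062%. In all 4 pairs the lowest treated library lay above the highest control. Transcripts of the mitochondrial genome moved the other way: 5 of 13 fell in each MDA-MB-231 comparison (11.6% and 11.5% of all genes). In each MDA-MB-436 comparison 12 of 13 fell (14.4% and 15.1% of all genes). Their summed level was 54587 to 58679 CPM in the controls of MDA-MB-436 and 43205 to 44165 CPM in its treated libraries. In MDA-MB-231 it was 46496 to 51070 CPM in the controls and 43741 to 45840 CPM in the treated libraries. The part of this in the members' rise was not tested. These are bulk libraries, so more cells in S phase and more RNA per cell cannot be told apart.

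**Figure D1:**
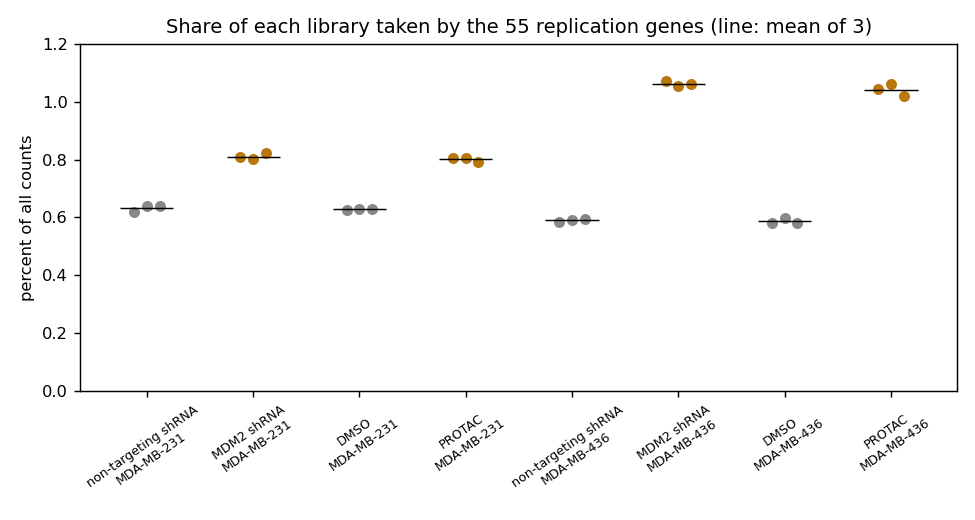
Percent of all counts (y axis) taken by the 55 replication genes in each library (points), for the 8 groups (x axis), with the group mean as a line. The treated libraries (orange) of MDA-MB-231 sit between 0.791 and 0.821%, those of MDA-MB-436 between 1.021 and 1.071%, and all control libraries (grey) between 0.58 and 0.64%.

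A core of 25 genes (45.5%) rose in all 4 comparisons, which 2.73% of the 19009 genes tested in both lines did. They came from every step: ORC1, CDC6 and CDT1 of licensing, MCM10, CDC45 and GINS3 of the helicase, POLA2, PRIM1 and POLD3 of the polymerases, RFC1, RFC3, RFC4, RFC5 and DSCC1 of the loaders, RPA2 and FEN1, RRM2 and TYMS of nucleotide supply, CCNE2, DTL, CLSPN, TIMELESS and WDHD1 of S-phase control, and CHAF1B and ASF1B of chromatin assembly. None fell in all 4, where 3.35% of genes did. MCM5 and GINS2 fell in both MDA-MB-231 comparisons and rose in both of MDA-MB-436 (3.64%, where 0.852% of genes did), and no member showed the opposite pattern, which 0.926% of genes did. GINS4, RPA1 and UHRF1 passed the test in none. Of these 25 genes, 17 kept all 4 calls in each of 15 alternative analyses. RFC4 lost its call in MDA-MB-231 in 8 (shRNA label) and 10 (PROTAC) of the 15, and in MDA-MB-436 in 8 and 1. TYMS lost its calls in MDA-MB-231 in 9 and 5, and in MDA-MB-436 in 5 with the shRNA label. In MDA-MB-231, RFC1 lost its shRNA call in 4 (among them leaving out non-targeting library 3 or library 1 or 3 labelled MDM2 shRNA), TIMELESS in 3 (non-targeting library 1 or 3) and GINS3 its PROTAC call in 2 (DMSO library 3 or PROTAC library 1). CDC45, PRIM1 and POLD3 also lost calls in that line.

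**Figure D2:**
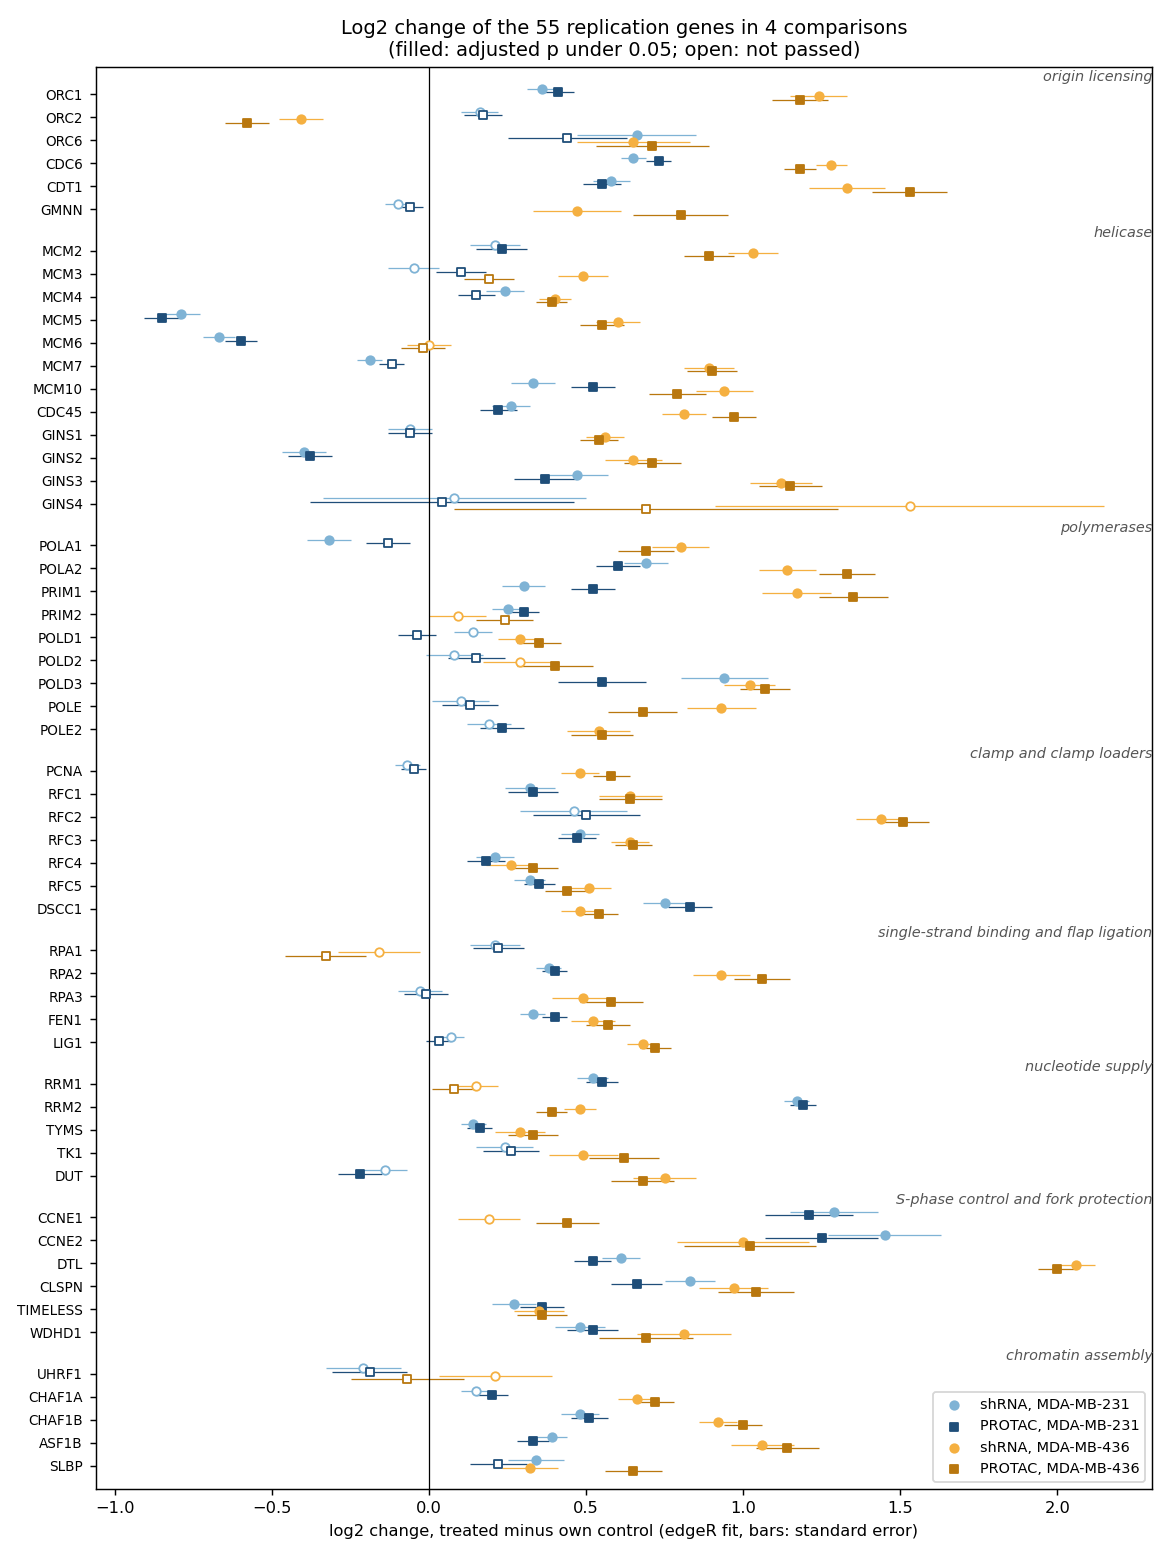
Log2 change of each of the 55 genes (x axis, treated minus own control, bars are standard errors), by step (y axis), for the shRNA label (circles) and the PROTAC (squares) in MDA-MB-231 (blue) and MDA-MB-436 (orange). Filled symbols passed the test. DTL at 2.06 with the shRNA label in MDA-MB-436 lies farthest to the right, and MCM5 at -0.79 and -0.85 in MDA-MB-231 farthest to the left.

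Promoter sequence was examined because E2F factors bind many of these promoters. RefSeq windows (GRCh38.p14, 250 bases before to 50 after each start) were found for 47 of the 55 genes, 62 windows in all, and CCNE2, MCM4, MCM5, GINS4, RPA2, RPA3, DSCC1 and POLD3 were not matched. The E2F-type words searched on both strands were TTTCCCGC, TTTCGCGC, TTTGCCGC and TTTGGCGC, whose matches can overlap each other. At least 1 word stood in a window of 22 of the 47 genes (46.8%), against 1090 of 27305 genes in the table (3.99%), and in 37.1% of the members' windows against 3.31% of all 35116 windows. The members' windows were also richer in G and C, at a median of 65.8% against 58.7%, and the word CCAAT was in 61.7% of members against 39.7% of genes. The word GGGCGG was in 78.7% of members against 48.3% of genes, and TTTGAA in 6.38% against 18.2%. A match describes letters and does not show binding.

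The words were present in 8 of 21 matched genes that rose in all 4 comparisons (38.1%), in 5 of 6 that fell in at least 1 (83.3%) and in 9 of the 20 other members (45%). Of those that fell in at least 1, MCM6, MCM7, GINS2, POLA1 and DUT had a word and ORC2 had none. MCM7, GINS2, POLA1 and DUT also rose in both comparisons of MDA-MB-436. In MDA-MB-231, MCM7 fell only with the shRNA label and DUT only with the PROTAC, calls lost in 2 and 9 of 15 alternatives. MCM7 and DUT were searched in several windows each. The counts of genes with a word are small and were not tested. The stretches before the start that lie outside annotated exons are shown for 5 genes with different behaviour, in lower case with E2F-type words in capitals. MCM6 fell in MDA-MB-231, and POLA1 fell there with the shRNA label and rose with both treatments in MDA-MB-436. PCNA rose in MDA-MB-436 and did not pass in MDA-MB-231, ORC2 fell in MDA-MB-436, and CHAF1B rose throughout. The MCM6 stretch is chr2:135876444-135876693 (minus strand), POLA1 chrX:24693668-24693917 (plus), PCNA chr20:5126627-5126785 (minus), ORC2 chr2:200963681-200963910 (minus) and CHAF1B chr21:36385142-36385377 (plus).
MCM6: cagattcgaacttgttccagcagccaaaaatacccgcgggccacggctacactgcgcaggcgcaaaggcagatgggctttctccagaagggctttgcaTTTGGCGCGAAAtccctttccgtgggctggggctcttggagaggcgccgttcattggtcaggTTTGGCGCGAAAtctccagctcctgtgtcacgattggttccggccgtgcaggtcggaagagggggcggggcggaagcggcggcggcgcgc
POLA1: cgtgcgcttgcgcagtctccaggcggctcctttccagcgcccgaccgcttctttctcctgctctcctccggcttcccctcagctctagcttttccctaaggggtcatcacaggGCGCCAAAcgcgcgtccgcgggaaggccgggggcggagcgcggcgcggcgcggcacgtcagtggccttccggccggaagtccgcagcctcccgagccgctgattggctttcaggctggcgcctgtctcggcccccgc
PCNA: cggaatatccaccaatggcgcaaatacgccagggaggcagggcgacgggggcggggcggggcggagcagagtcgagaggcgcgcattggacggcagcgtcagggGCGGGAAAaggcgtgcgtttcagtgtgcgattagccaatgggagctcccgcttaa
ORC2: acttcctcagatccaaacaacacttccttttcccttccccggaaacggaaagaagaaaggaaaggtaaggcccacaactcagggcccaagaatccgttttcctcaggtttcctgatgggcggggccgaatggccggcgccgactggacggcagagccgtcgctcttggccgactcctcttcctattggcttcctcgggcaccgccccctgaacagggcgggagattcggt
CHAF1B: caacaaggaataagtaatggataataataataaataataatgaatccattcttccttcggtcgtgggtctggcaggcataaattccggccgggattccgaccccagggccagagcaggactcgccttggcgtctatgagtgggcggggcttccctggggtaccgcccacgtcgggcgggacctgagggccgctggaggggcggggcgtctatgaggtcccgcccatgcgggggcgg
MCM6 holds 4 matches in 2 overlapping pairs, each pair with 1 word on either strand. POLA1 and PCNA hold 1 match each, read on the strand opposite to the gene, and the ORC2 and CHAF1B stretches hold none.

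Among licensing genes, ORC1, CDC6 and CDT1 rose in all 4 comparisons. The effect was higher in MDA-MB-436 for 4 of the 6 licensing genes with either treatment. Of the 6, 4 rose with the shRNA label and 3 with the PROTAC in MDA-MB-231, and 5 rose and 1 fell in each MDA-MB-436 comparison. CDC6, the ATPase that recruits the helicase to origins, had 172, 168 and 168 CPM with the non-targeting shRNA in MDA-MB-231 and 275, 259 and 265 CPM with the MDM2 shRNA label. DMSO libraries of that line had 161, 164 and 163 CPM of CDC6 and PROTAC libraries 277, 263 and 272 CPM. In MDA-MB-436 its levels were 101, 98.9 and 107 CPM (non-targeting), 241, 249 and 254 CPM (MDM2 shRNA label), 110, 108 and 108 CPM (DMSO) and 241, 256 and 244 CPM (PROTAC). No treated group of CDC6 overlapped its control, and its fold changes were 1.57, 1.66, 2.42 and 2.27 in that order (adjusted p between 4.17e-08 and 4.6e-07).

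CDT1, the partner of CDC6 that carries the ring to the origin, stood at 80.7, 85.1 and 87.8 CPM in the non-targeting libraries of MDA-MB-436 and at 227, 202 and 209 CPM in those labelled MDM2 shRNA. Its PROTAC libraries had 227, 211 and 155 CPM against 64.5, 70.7 and 69.9 CPM with DMSO, so the third PROTAC library was the lowest of its group and still above every control. The log2 changes of CDT1 were 1.33 ± 0.12 and 1.53 ± 0.12 there, and 0.58 ± 0.06 and 0.55 ± 0.06 in MDA-MB-231. ORC1, the ATPase subunit of the origin recognition complex, rose 2.36-fold and 2.27-fold in MDA-MB-436 and 1.28-fold and 1.33-fold in MDA-MB-231.

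ORC2, a core subunit of the same complex, was the only member that fell in MDA-MB-436, joined by RPA1 with the PROTAC when PROTAC library 2 was left out. For ORC2, non-targeting libraries had 83.6, 80.7 and 81.5 CPM and those labelled MDM2 shRNA 60.3, 60 and 64.7 CPM (log2 change -0.41 ± 0.07, adjusted p = 0.000727). DMSO gave 96.1, 83.5 and 85 CPM of ORC2 and the PROTAC 59.5, 58.8 and 59.3 CPM (-0.58 ± 0.07, adjusted p = 6.13e-05). Neither pair of groups overlapped. In MDA-MB-231 ORC2 did not pass, with log2 changes of 0.16 and 0.17. GMNN, the inhibitor of CDT1, rose in MDA-MB-436 by 0.47 and 0.80 on the log2 scale and did not pass in MDA-MB-231 (-0.10 and -0.06), and its shRNA call was lost on leaving out any 1 of the 6 libraries. ORC6, whose libraries spread widely (30.9 to 47.2 CPM among MDA-MB-231 controls), rose in 3 of the 4 comparisons. Its shRNA call was lost in MDA-MB-231 in 6 of 15 alternatives, among them leaving out any library but non-targeting library 1, and in MDA-MB-436 without non-targeting library 3 or the first library labelled MDM2 shRNA.

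The helicase subunits split between the lines. Of its 12 genes, 4 rose and 4 fell with the shRNA label in MDA-MB-231 and 4 rose and 3 fell with the PROTAC, while 10 and 9 rose and none fell in MDA-MB-436. MCM5 had 143, 132 and 145 CPM in the non-targeting libraries of MDA-MB-231 and 77, 87.5 and 78.1 CPM in those labelled MDM2 shRNA. DMSO libraries of MDA-MB-231 had 148, 142 and 147 CPM of MCM5 and PROTAC libraries 80.5, 80.3 and 81.3 CPM. All 6 treated libraries lay below all 6 controls, at log2 changes of -0.79 ± 0.06 (adjusted p = 2.78e-06) and -0.85 ± 0.06 (adjusted p = 1.77e-06).

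In MDA-MB-436 MCM5 went the other way. It had 123, 118 and 127 CPM (non-targeting) against 188, 185 and 186 CPM (MDM2 shRNA label), and 109, 124 and 118 CPM (DMSO) against 182, 178 and 157 CPM (PROTAC). The groups again did not overlap, with rises of 1.51-fold and 1.47-fold. Tested in the fit of all 24 libraries, the shRNA effect on MCM5 was higher in MDA-MB-436 by 1.37 ± 0.10 and the PROTAC effect by 1.41 ± 0.10 on the log2 scale (adjusted p = 1.5e-08 and 9.54e-09).

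MCM6, another subunit of the ring, fell in MDA-MB-231 from 117, 117 and 118 CPM to 74, 70.7 and 77.4 CPM with the MDM2 shRNA label and from 113, 110 and 112 CPM (DMSO) to 78, 71 and 71.8 CPM (PROTAC). These are falls to 0.63 and 0.658 of control (adjusted p = 3.59e-06 and 7.67e-06). In MDA-MB-436 its 12 libraries lay between 139 and 160 CPM, groups overlapped, and the ratios of treated to control were 0.997 and 0.987, whose direction turned with no scaling (log2 0.18 and 0.15). GINS2, a subunit of the GINS complex, fell in MDA-MB-231 from 39.1, 39.2 and 39.7 CPM to 31, 27.1 and 31.4 CPM (shRNA label) and from 39.2, 36.5 and 40.6 CPM to 29.9, 31.6 and 28.2 CPM (PROTAC). It rose in MDA-MB-436 from 43, 42.5 and 47.4 CPM to 70.3, 69.3 and 68.4 CPM and from 38.5, 42.6 and 38.9 CPM to 69.2, 69 and 57.5 CPM. GINS2 thus showed groups apart in all 4 comparisons, with opposite direction in the lines.

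The 6 subunits of the ring enter it in equal number, so their levels were set side by side per kilobase of exon, a scale that depends on all annotated exons of each gene. In the non-targeting libraries of MDA-MB-231 they ran from 19.5 CPM per kb (MCM5) to 137 (MCM3), with MCM6 at 29.1, MCM4 at 31.3, MCM2 at 31.9 and MCM7 at 79.4. With the MDM2 shRNA label MCM5 was at 11.2 and MCM6 at 18.4 CPM per kb, still the lowest of the 6, and MCM3 at 132. In MDA-MB-436, MCM7 stood highest, at 131 CPM per kb without and 240 with the MDM2 shRNA label, and MCM5 lowest, at 16.7 and 24.9. Among these, MCM2 rose 2.05-fold and 1.85-fold in MDA-MB-436, MCM7 1.85-fold and 1.86-fold and MCM4 1.32-fold and 1.31-fold, while MCM3 rose with the shRNA label (log2 0.49) and did not pass with the PROTAC (0.19). The difference between the shRNA and PROTAC effects on MCM3 did not pass. MCM7 fell in MDA-MB-231 with the shRNA label (log2 change -0.19 ± 0.04) and did not pass with the PROTAC (-0.12 ± 0.04). The MCM7 call was lost with no scaling beyond library totals and in the fit of all 24 libraries.

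**Figure D3:**
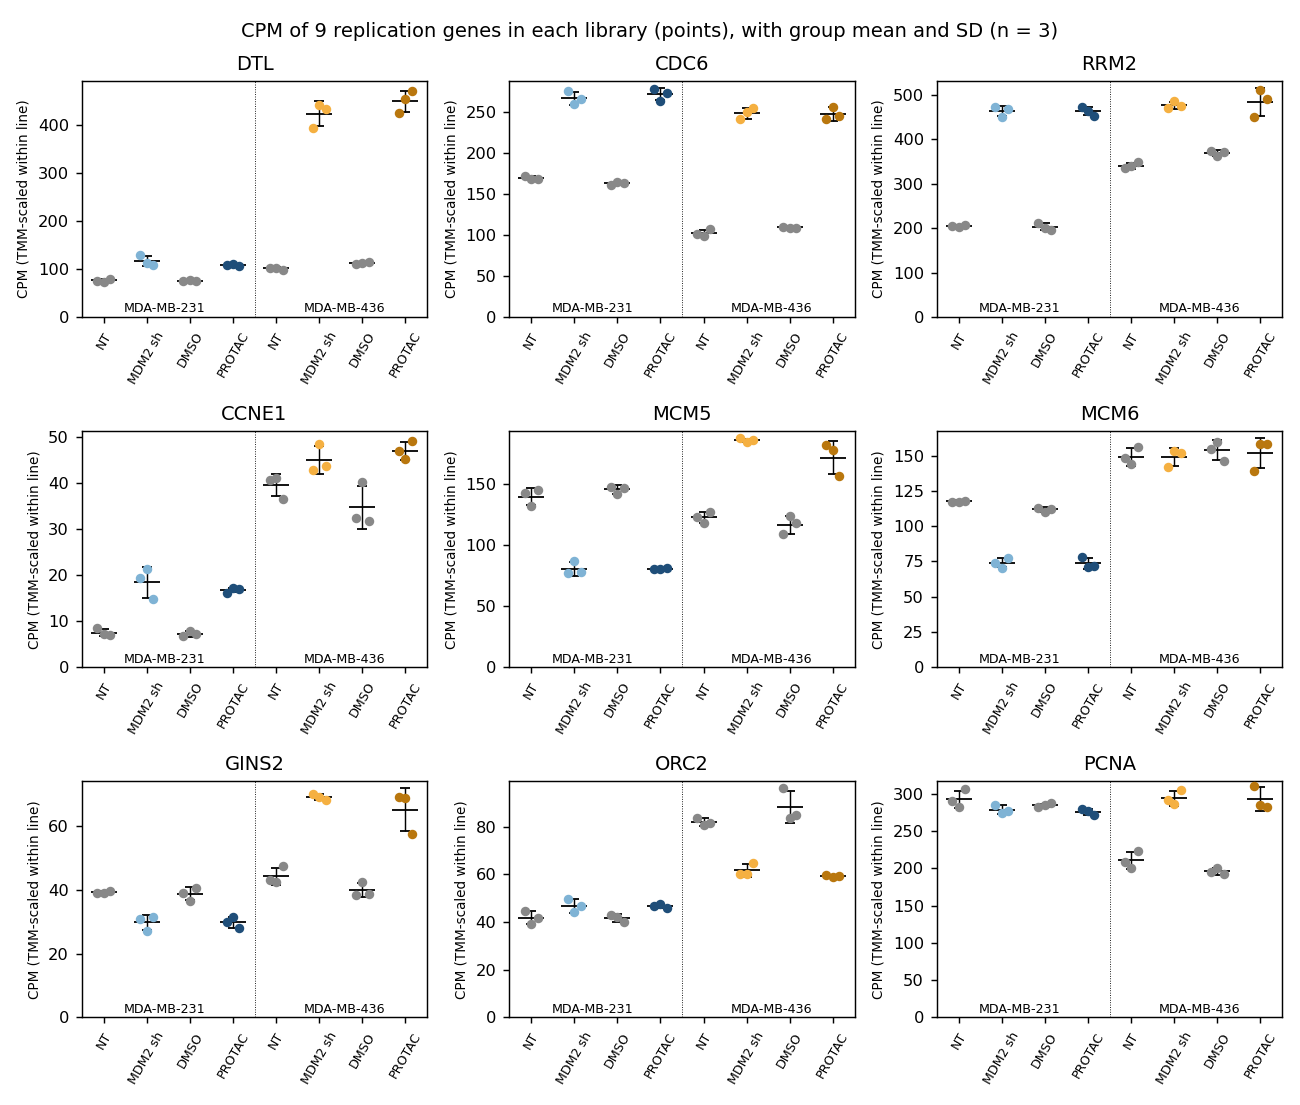
CPM (y axis, from 0) of 9 replication genes in each of the 24 libraries (points) by group (x axis), with the group mean and SD (n = 3). Treated MCM5 and GINS2 libraries lie below their controls in MDA-MB-231 and above them in MDA-MB-436, MCM6 is lower only in MDA-MB-231, and ORC2 only in MDA-MB-436.

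CDC45, MCM10 and GINS3 rose in both lines. CDC45, which with GINS activates the ring, rose from 37.4, 39.2 and 38.2 CPM to 68.4, 67.9 and 65.6 CPM with the MDM2 shRNA label in MDA-MB-436 and from 35.2, 36.9 and 34.2 CPM to 72.7, 70.5 and 65.7 CPM with the PROTAC. Its rises in MDA-MB-231 were 1.19-fold and 1.16-fold, and the calls there were lost in 3 and 7 of 15 alternatives, among them leaving out non-targeting library 1 or 2, DMSO library 2 or 3, or PROTAC library 2 or 3. MCM10, needed for helicase start-up, rose by 0.33 to 0.94 on the log2 scale and GINS3 by 0.37 to 1.15. GINS1 rose in MDA-MB-436 (1.47-fold and 1.45-fold) and did not pass in MDA-MB-231, and the line difference passed for both treatments. GINS4 libraries fell at separate levels within groups: 35.3, 112 and 110 CPM in the non-targeting libraries and 41.7, 113 and 117 CPM in those labelled MDM2 shRNA of MDA-MB-231. In MDA-MB-436 they ran from 13.2 to 92.9 CPM, and no comparison passed. AC009630.1 and AC009630.2, annotated on the opposite strand, cover 23.6% of GINS4 exon bases, and the strand of counting is not given in the sources used here.

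Of 9 primase and polymerase subunits, 7 rose with the shRNA label and 8 with the PROTAC in MDA-MB-436. In MDA-MB-231, 4 rose and 1 fell with the shRNA label and 5 rose with the PROTAC. POLA1, the catalytic subunit of polymerase alpha that extends primers, fell in MDA-MB-231 from 54.7, 56.7 and 55.8 CPM to 45.4, 40 and 48.4 CPM with the MDM2 shRNA label (log2 change -0.32 ± 0.07, adjusted p = 0.00714). With the PROTAC there it had 49.7, 46.1 and 46.7 CPM against 53.5, 53.1 and 49.5 CPM, groups that overlapped (-0.13 ± 0.07, adjusted p = 0.223). In MDA-MB-436 POLA1 rose from 73.6, 80.4 and 73.3 CPM to 125, 135 and 135 CPM and from 93.4, 80.6 and 81 CPM to 120, 153 and 138 CPM.

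Its partner subunit POLA2 rose everywhere, from 43, 45.4 and 45.4 CPM to 98.4, 97.8 and 98.3 CPM with the shRNA label in MDA-MB-436 and from 28.7, 26.2 and 28.9 CPM to 42.6, 47.3 and 45.1 CPM in MDA-MB-231. So the 2 subunits of polymerase alpha moved in opposite directions in the shRNA comparison of MDA-MB-231. PRIM1, the small primase subunit that lays the RNA primer, rose 2.25-fold and 2.55-fold in MDA-MB-436 and 1.23-fold and 1.43-fold in MDA-MB-231, the 1.23-fold call being lost without non-targeting library 1 or the first library labelled MDM2 shRNA. PRIM2, the large primase subunit, rose in MDA-MB-231 (1.19-fold and 1.23-fold) and did not pass in MDA-MB-436 (log2 0.09 and 0.24), and the line difference of PRIM2 did not pass either.

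POLD3, an accessory subunit of the lagging-strand polymerase delta, rose in MDA-MB-231 from 25.3, 39.7 and 27.1 CPM to 60.1, 55.7 and 61 CPM with the shRNA label and from 37.8, 40.5 and 42.9 CPM to 61.1, 56.1 and 59.9 CPM with the PROTAC. No groups overlapped, and the PROTAC call was lost without DMSO library 1 or PROTAC library 1. In MDA-MB-436 POLD3 rose 2.03-fold and 2.1-fold. POLE, the leading-strand polymerase, rose in MDA-MB-436 by 1.91-fold and 1.61-fold and not in MDA-MB-231 (log2 0.10 and 0.13, not passed). POLD1, the catalytic subunit of delta, rose in MDA-MB-436 by 1.23-fold and 1.28-fold.

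PCNA, the sliding clamp, had the highest level per kilobase of the 55 genes in the controls of both lines, with medians of 199 and 133 CPM per kb. It had 208, 201 and 223 CPM in the non-targeting libraries of MDA-MB-436 and 292, 286 and 305 CPM in those labelled MDM2 shRNA. With DMSO it had 195, 200 and 192 CPM there and with the PROTAC 311, 285 and 283 CPM. These rises of 1.4-fold and 1.5-fold were not matched in MDA-MB-231, where the log2 changes of -0.07 and -0.05 did not pass and the line difference was 0.54 ± 0.08 and 0.63 ± 0.08 (adjusted p = 5.19e-05 and 7.41e-06).

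All 6 loader genes besides PCNA rose in MDA-MB-436, although the call of RFC4 with the shRNA label was lost with the replicate block, with no filter on low counts and on leaving out any 1 of the 6 libraries (adjusted p up to 0.13). RFC2, a subunit of the clamp loader, rose most, from 68.7, 68.4 and 77.3 CPM to 198, 191 and 194 CPM with the shRNA label and from 63.3, 70.1 and 62.2 CPM to 199, 190 and 170 CPM with the PROTAC (2.72-fold and 2.86-fold). In MDA-MB-231 its libraries spread more, 45.9, 66 and 47.9 CPM against 67.5, 86.1 and 65.6 CPM, and did not pass (adjusted p = 0.077 and 0.0535), but passed in 5 and 8 of 15 alternatives. RFC1, RFC3, RFC4 and RFC5 rose between 1.13-fold and 1.56-fold over the 4 comparisons. DSCC1, of the alternative loader that supports cohesion, rose more in MDA-MB-231, from 52.9, 50 and 56.1 CPM to 90.5, 80.4 and 96 CPM with the shRNA label and 1.78-fold with the PROTAC. In MDA-MB-436 it rose 1.4-fold and 1.46-fold, and the difference between lines passed (-0.28 ± 0.10 in each, adjusted p = 0.0408 and 0.038).

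Among genes that bind single strands or close flaps, RPA2 rose from 126, 131 and 134 CPM to 252, 246 and 248 CPM with the shRNA label in MDA-MB-436 and from 131, 122 and 115 CPM to 288, 256 and 223 CPM with the PROTAC. RPA2 is the middle subunit of replication protein A, and in MDA-MB-231 it rose 1.31-fold and 1.32-fold. The large subunit RPA1 passed in no comparison: its libraries ran from 301 to 412 CPM in MDA-MB-231 and from 163 to 266 CPM in MDA-MB-436, with log2 changes of 0.21, 0.22, -0.16 and -0.33. RPA3, the small subunit, rose in MDA-MB-436 (1.41-fold and 1.49-fold) and did not pass in MDA-MB-231. LIG1, which seals nicks between Okazaki fragments, rose in MDA-MB-436 from 73.8, 73.6 and 73.3 CPM to 120, 115 and 119 CPM and from 69.8, 65.9 and 66.1 CPM to 109, 114 and 109 CPM. In MDA-MB-231 LIG1 stayed between 129 and 144 CPM in all 12 libraries and did not pass. The flap nuclease FEN1 rose 1.26-fold to 1.48-fold in all 4.

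Both subunits of ribonucleotide reductase responded more in MDA-MB-231. RRM2, the regulated subunit of ribonucleotide reductase that makes deoxynucleotides, rose there from 205, 203 and 208 CPM to 472, 449 and 467 CPM with the shRNA label and from 211, 201 and 196 CPM to 472, 464 and 453 CPM with the PROTAC. In MDA-MB-436 it started higher, at 334, 339 and 348 CPM, and reached 469, 485 and 474 CPM with the shRNA label, and went from 374, 362 and 371 CPM to 449, 511 and 489 CPM with the PROTAC. The folds were 2.25, 2.28, 1.4 and 1.31, and the line differences -0.71 ± 0.07 and -0.80 ± 0.07 (adjusted p = 5.7e-07 and 1.05e-07). RRM1, the large subunit of the same enzyme, rose in MDA-MB-231 from 304, 309 and 302 CPM to 448, 412 and 454 CPM and from 292, 298 and 281 CPM to 429, 451 and 393 CPM, and did not pass in MDA-MB-436 (1.11-fold and 1.06-fold). The line difference of RRM1 passed as well (-0.39 ± 0.09 and -0.46 ± 0.09).

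DUT, which removes dUTP from the nucleotide pool, went the other way. It fell with the PROTAC in MDA-MB-231 from 99.1, 105 and 105 CPM to 82.3, 88.6 and 94.5 CPM (adjusted p = 0.0485), a call lost in 9 of 15 alternatives, among them leaving out any DMSO library or PROTAC library 1 or 2. In MDA-MB-436 DUT rose from 94.1, 99 and 89.7 CPM to 172, 147 and 158 CPM and from 83.1, 93.7 and 84.6 CPM to 161, 128 and 130 CPM. TYMS, the maker of thymidylate, rose between 1.1-fold and 1.26-fold, and the opposite-strand genes TYMSOS and ENOSF1 cover 46.6% of its exon bases. TK1, the salvage thymidine kinase, rose in MDA-MB-436 by 1.4-fold and 1.53-fold.

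All 6 genes of S-phase control and fork protection rose with both treatments in MDA-MB-231, and 5 and 6 rose in MDA-MB-436. DTL, the substrate receptor of a CUL4 ubiquitin ligase that removes CDT1 in S phase, changed most of the 55 genes in MDA-MB-436. For DTL, non-targeting libraries had 103, 102 and 99 CPM there and those labelled MDM2 shRNA 394, 443 and 435 CPM. DMSO gave 110, 113 and 115 CPM of DTL and the PROTAC 426, 454 and 471 CPM. These rises of 4.17-fold and 3.99-fold (adjusted p = 4.26e-09 and 5.25e-09) compare with 1.53-fold and 1.43-fold in MDA-MB-231, where the libraries went from 75.8, 73.7 and 79.9 CPM to 129, 112 and 109 CPM and from 74.7, 77.4 and 76.1 CPM to 108, 111 and 107 CPM. The line difference in DTL was 1.43 ± 0.08 for the shRNA and 1.48 ± 0.08 for the PROTAC on the log2 scale.

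CCNE1 and CCNE2 encode the E cyclins that start S phase with CDK2. CCNE1 was low in MDA-MB-231 controls, at 8.46, 7.12 and 7 CPM (non-targeting) and 6.73, 7.91 and 7.12 CPM (DMSO), and rose to 19.4, 21.3 and 14.7 CPM and to 16.2, 17.2 and 16.9 CPM. In MDA-MB-436 its non-targeting libraries already had 40.7, 41.1 and 36.6 CPM, those labelled MDM2 shRNA 42.9, 48.4 and 43.7 CPM (not passed, adjusted p = 0.19), and the PROTAC took it from 32.4, 40.1 and 31.7 CPM to 46.9, 45.2 and 49.1 CPM. The treated levels of CCNE1 in MDA-MB-231 thus lay under the control levels of MDA-MB-436, with both lines scaled separately. CCNE2 rose in MDA-MB-231 from 32.7, 31.4 and 30.1 CPM to 73.2, 76.7 and 108 CPM and from 28.8, 42.9 and 28 CPM to 84.7, 77 and 75.4 CPM, and in MDA-MB-436 2.01-fold and 2.03-fold, with no line difference called. INTS8 and AC087752.4, on the opposite strand, cover 37.1% of CCNE2 exon bases.

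CLSPN, the adaptor that carries the checkpoint signal at stalled forks, rose from 173, 178 and 155 CPM to 316, 255 and 326 CPM with the shRNA label in MDA-MB-231 and from 193, 190 and 196 CPM to 393, 381 and 361 CPM in MDA-MB-436. With the PROTAC it rose 1.58-fold and 2.06-fold, its MDA-MB-436 libraries spreading from 301 to 456 CPM. TIMELESS, of the fork protection complex, rose 1.2-fold to 1.28-fold and WDHD1, which ties polymerase alpha to the helicase, 1.4-fold to 1.75-fold. No line difference passed for CLSPN, TIMELESS or WDHD1.

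Genes of chromatin assembly behind the fork rose in 3 of 5 cases in each MDA-MB-231 comparison and in 4 of 5 in each of MDA-MB-436. CHAF1B, a subunit of chromatin assembly factor 1, rose from 83.2, 83.3 and 86.9 CPM to 162, 160 and 158 CPM with the shRNA label in MDA-MB-436 and from 43.2, 44.8 and 42.6 CPM to 62.3, 58.7 and 61 CPM in MDA-MB-231, and 2.01-fold and 1.42-fold with the PROTAC. CHAF1A, the large subunit, rose 1.58-fold and 1.65-fold in MDA-MB-436 and 1.14-fold with the PROTAC in MDA-MB-231, a call lost in 5 of 15 alternatives (without the filter on low counts, DMSO library 2 or 3, or PROTAC library 1 or 2). ASF1B, which hands histones to that factor, rose 1.25-fold to 2.2-fold. SLBP, the protein that binds the stem-loop of replication-dependent histone messages, rose in 3 comparisons. Its shRNA calls were lost in 3 of 15 alternatives in MDA-MB-231 (without non-targeting library 2 or 3 or library 1 labelled MDM2 shRNA) and in 5 in MDA-MB-436 (no filter on low counts, or without non-targeting library 2 or 3 or library 1 or 3 labelled MDM2 shRNA). UHRF1, the reader of hemimethylated DNA, passed in none, its libraries running from 136 to 248 CPM.

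Of the replication-dependent histone genes, 12 of 14 tested fell with the shRNA label and 11 with the PROTAC in MDA-MB-231. There 11.6% and 11.5% of all genes tested fell. The summed level of the histone genes went from 577 to 636 CPM down to 212 to 222 CPM (shRNA label) and from 582 to 629 CPM down to 219 to 226 CPM (PROTAC). These sums were not TMM-scaled. HIST1H2AC, for example, had a TMM-scaled mean of 92.6 ± 1.75 CPM (SD, n = 3) in the non-targeting libraries against 17.4 ± 1.49 CPM with the MDM2 shRNA label. In MDA-MB-436 1 of 15 rose and 1 fell with the shRNA label (6.67% each), where 16.0% of all genes rose and 14.4% fell. None of the 15 passed in either direction with the PROTAC, where 17.3% and 15.1% of all genes did. Only 7 or 8 of the 15 had a mean of at least 1 CPM in any group of that line, so the test could miss changes there. The sum was 139 to 154 CPM (non-targeting), 147 to 171 CPM (MDM2 shRNA label), 122 to 136 CPM (DMSO) and 153 to 178 CPM (PROTAC). HIST1H2AC, at a TMM-scaled mean of 118 CPM in the non-targeting libraries, did not pass with either treatment. Whether the libraries were selected for poly(A) tails, which most replication histone messages lack, is not given in the sources used here.

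Of 42 other replication genes looked up, 17 rose and 4 fell with the shRNA label in MDA-MB-231 and 20 and 3 with the PROTAC. In MDA-MB-436 20 rose and 4 fell, and 20 rose and 6 fell. Of all genes tested, 11.1% and 11.1% rose in MDA-MB-231 (shRNA label, then PROTAC) and 16.0% and 17.3% in MDA-MB-436. The shares of all genes that fell were 11.6%, 11.5%, 14.4% and 15.1% in that order. CDC25A, the phosphatase that activates CDK2, rose 0.64, 0.85, 1.23 and 1.31 on the log2 scale, and MCM8 0.57, 0.55, 1.00 and 0.96. CCNA2, the cyclin of S and G2 phase, fell in all 4 (-0.16, -0.16, -1.12 and -1.25). Of 25 mitotic genes, 22 and 18 fell in MDA-MB-231 and 19 and 20 in MDA-MB-436, CCNB1 by 1.06, 1.06, 1.56 and 1.57 on the log2 scale. Of 12 further genes of nucleotide supply, 3 rose and 2 fell, 4 and 0, 3 and 4, and 2 and 2 in the same order. With the PROTAC in MDA-MB-436 these counts, 16.7% each way, were near the shares of all genes. SAMHD1, which breaks down deoxynucleotides, and CTPS1, which makes CTP, rose in both comparisons of MDA-MB-231 and fell in both of MDA-MB-436. Of 7 cell cycle inhibitors, 5 were tested in MDA-MB-231, where 2 rose and 2 fell with the shRNA label and 1 rose with the PROTAC, with a median log2 change of -0.09 in both. All 7 were tested in MDA-MB-436, where 3 rose and none fell in each comparison (medians 0.22 and 0.24). CDKN1A, the inhibitor of cyclin E kinases, rose in all 4 (1.32 ± 0.36, 1.35 ± 0.36, 2.52 ± 0.16 and 2.63 ± 0.16, SE). Its libraries spread widely in the shRNA comparison of MDA-MB-231, at 63.1 ± 27.2 CPM (SD, n = 3) against 158 ± 66.4 CPM. The adjusted p of edgeR's test in that line was 0.0208 (shRNA label) and 0.0185 (PROTAC). CDKN1B and CDKN2C fell with the shRNA label in MDA-MB-231 (-0.26 and -0.15) and did not pass there with the PROTAC. In MDA-MB-436 CDKN1B rose in both comparisons (0.43 and 0.24) and CDKN2C did not pass. CDKN1C rose only with the shRNA label in MDA-MB-231 (0.71).

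The hairpin and the PROTAC were compared by testing the difference of their effects within a line. None of the 55 genes passed in MDA-MB-231, where 0.00484% of all genes did, nor in MDA-MB-436, where 0.00441% did. By an unadjusted p under 0.05 there were 0 and 2 (MCM3 and SLBP), and DESeq2 called 0 and 0. The differences, PROTAC minus shRNA, ran from -0.39 (POLD3, SE 0.20) to 0.21 in MDA-MB-231, where 51 of 55 were within 0.2 of zero, and from -0.84 (GINS4, SE 0.86) to 0.34 in MDA-MB-436, where 47 were. The median standard error of a difference was 0.09 and 0.12, so differences of that size could not be resolved here, and a p that missed the threshold does not show that the effects were equal.

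The lines were compared by a treatment-by-line term. The shRNA effect was higher in MDA-MB-436 for 28 of the 55 genes and lower for 5, where 9.94% and 9.77% of all genes were (19.7% together). For the PROTAC the counts were 29 and 6, where 11.8% and 10.5% were (22.3% together). By step, the helicase held 10 and 8 of 12 higher and none lower, licensing 4 of 6 higher and 1 lower with each treatment (ORC2), and nucleotide supply 1 of 5 higher and 2 lower with each. Genes with the higher effect included DTL, MCM5, GINS2, MCM7, RFC2 and, with the shRNA, POLA1 by 1.10 ± 0.12. Those with the lower effect in both were ORC2, DSCC1, RRM1, RRM2 and CCNE1, the last by -1.12 ± 0.17 and -0.77 ± 0.17, and RPA1 with the PROTAC.

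**Figure D4:**
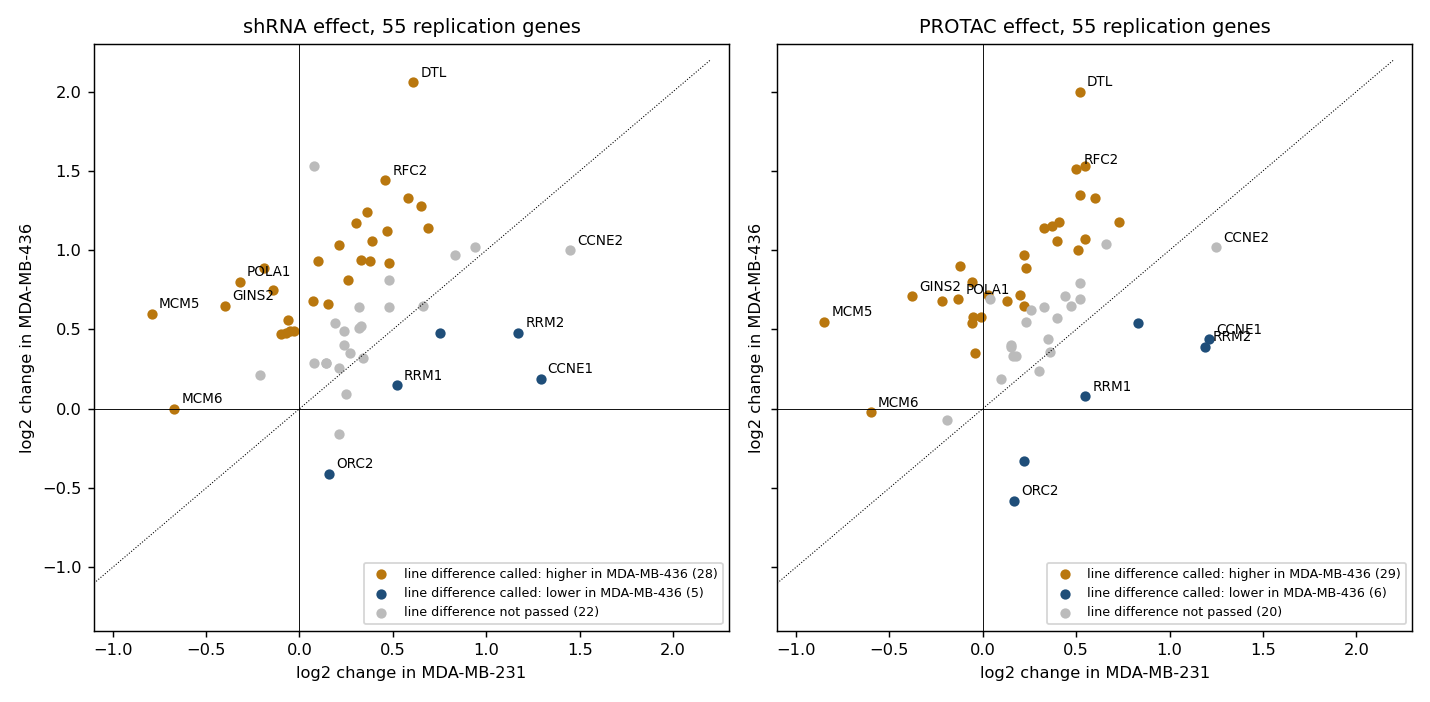
Log2 change in MDA-MB-436 (y axis) against that in MDA-MB-231 (x axis) for the 55 genes, shRNA label on the left and PROTAC on the right, with the line of equal change dotted. Orange points had a line difference called higher in MDA-MB-436 (28 and 29 genes), blue ones lower (5 and 6), and grey ones were not passed (22 and 20).

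Without treatment the lines also differed: in their control libraries, 20 of the 55 genes were higher in MDA-MB-436 and 29 lower, where 35.9% and 30.9% of all genes were (66.8% together). CCNE1 was 4.81-fold and RPA3 2.17-fold higher in MDA-MB-436. GINS4, whose libraries spread widely within groups, had a log2 difference of -1.83 ± 0.41, the lowest of the 55. POLE2 was at -1.36 and MCM3 at -1.30, with PRIM2, GMNN and WDHD1 between -1.29 and -1.28. LIG1, at a log2 difference of -0.99 ± 0.04, and CDC6, at -0.71 ± 0.04, were lower as well. The lowest genes per kilobase were CCNE1 in MDA-MB-231 (median 2.85 CPM per kb over 6 controls, lowest 2.69, highest 3.39) and GINS3 in MDA-MB-436 (median 4.1, from 3.46 to 4.18), next to CCNE2 at a median of 4.83 (4.52 to 5.49). PCNA's lowest control in MDA-MB-231, at 196 CPM per kb, lay above the highest of MCM3, the next, at 149. In MDA-MB-436 its range of 127 to 154 overlapped that of MCM7, 109 to 137.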

How the data were processed

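RNA of 24 libraries (8 groups of 3) was analysed from the gene counts as deposited. Per the labels' protocols, total RNA was taken with TRIzol and libraries were made with NEBNext Ultra II RNA and read on an Illumina HiSeq instrument. Per the submitters' processing notes, cutadapt 2.4, HISAT2, StringTie, edgeR and the build GRCh38 were used, with their order and the strand of counting not given in the sources used here. The authors deposited whole-number read counts per Ensembl gene, not normalized. Symbols and exons came from GENCODE 29, which matched 57055 of 60675 identifiers and 99.93% of counts.

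Genes were filtered with filterByExpr, scaled by TMM and tested with edgeR 4.0.16 (R 4.3.3, limma 3.58.1), quasi-likelihood, Benjamini-Hochberg threshold 0.05 and prior count 0.125. Each line was fitted on its 12 libraries (20675 and 22663 genes, 8 residual degrees of freedom). Differences between lines came from a fit of all 24 (24719 genes, 16 degrees of freedom), as did CPM per kb over all annotated exons. The scripts were tested on simulated data. Promoter words were counted in RefSeq windows, and tables and plots were made with Python 3.11.15, pandas 2.3.3, numpy 2.4.6 and matplotlib 3.10.9. Alternatives were other scalings and filters, DESeq2 1.42.0, a replicate block, other sets of libraries, counts divided by 4, members without overlapping exons, and leaving out each library. No replicate pair was identical (chi-square per degree of freedom 39.21 to 129.83).

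The members and gene lists were chosen with earlier results of these data known. The members described in full were, in each comparison, the 4 called with the largest rise and the 4 with the largest fall whose groups did not overlap, and in each step the 2 with the smallest adjusted p, 25 in all; others are given more briefly and were chosen after their values were seen. Markers of endothelial cells, at most 4 genes, summed to 2.58 to 11.5 CPM.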

Additional observations from a re-analysis of the deposited data

Results flagged for a closer look

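The following members had effects that differed between the 2 lines by the treatment-by-line term of edgeR's quasi-likelihood test (adjusted p under 0.05). Values are log2 differences, the effect in MDA-MB-436 minus that in MDA-MB-231, and their causes were not tested.

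For the shRNA label, helicase and polymerase genes were higher in MDA-MB-436: MCM5 by 1.37, GINS2 by 1.03, MCM6 by 0.64, CDC45 by 0.54, POLA1 by 1.10, PRIM1 by 0.85 and POLA2 by 0.43. Licensing genes differed by 0.86 (ORC1), 0.73 (CDT1), 0.60 (CDC6) and -0.59 (ORC2). DTL differed by 1.43, RFC2 by 0.97, DUT by 0.88, LIG1 by 0.59, RPA2 by 0.53, CHAF1A by 0.49 and CHAF1B by 0.43. Lower in MDA-MB-436 were CCNE1 (-1.12), RRM2 (-0.71), RRM1 (-0.39) and DSCC1 (-0.28).

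For the PROTAC, MCM5 differed by 1.41, GINS2 by 1.09, MCM6 by 0.59, CDC45 by 0.76, POLA1 by 0.83, PRIM1 by 0.83, POLA2 by 0.73 and POLD3 by 0.53. Licensing genes differed by 0.78 (ORC1), 0.99 (CDT1), 0.45 (CDC6) and -0.74 (ORC2). DTL differed by 1.48, RFC2 by 1.02, DUT by 0.91, LIG1 by 0.70, RPA2 by 0.66, CHAF1A by 0.53 and CHAF1B by 0.50. Lower were CCNE1 (-0.77), RRM2 (-0.80), RRM1 (-0.46) and DSCC1 (-0.28).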

How the results depend on the processing

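Of the 166 calls of all 55 members in the 4 comparisons, 139 held in each of 15 alternatives (26 of 36 and 26 of 35 in MDA-MB-231, 41 of 47 and 46 of 48 in MDA-MB-436). Leaving out 1 library ended a call in 89 of 996 cases and other settings in 42 of 1494. MCM2 with the PROTAC in MDA-MB-231 lost its call in 9 alternatives, POLE2 there in 7, and POLD2 with the PROTAC in MDA-MB-436 in 5. For the 25 members described in full, called or not, 867 values under other settings kept their direction and side of the threshold, 20 passed it, 10 lost it and 3 reversed, and leaving out 1 library gave 573, 3, 19 and 5. Among the 32 members without overlapping exons, 19 rose and 3 fell (shRNA label, MDA-MB-231), 17 and 2 (PROTAC), 27 and 0 (shRNA label, MDA-MB-436) and 28 and 0 (PROTAC). Line differences there were 17 higher and 3 lower (shRNA) and 16 and 3 (PROTAC), and 16 members were lower in the controls of MDA-MB-436; fewer members were counted. With no scaling beyond library totals, summed CPM were 6333, 8106, 6280 and 8009 in MDA-MB-231 (non-targeting, MDM2 shRNA label, DMSO, PROTAC) and 5897, 10636, 5869 and 10425 in MDA-MB-436. MCM6 in MDA-MB-436 reversed to 0.18 (shRNA label) and 0.15 (PROTAC) then, and to 0.00 (shRNA label) with a filter of 1 CPM; the cause was not tested. Leaving out 1 library, it ran from -0.04 to 0.04 (shRNA label) and -0.06 to 0.03 (PROTAC), and LIG1 with the PROTAC in MDA-MB-231 from -0.01 to 0.05. Leaving out 1 library, 1 to 2 members fell with the PROTAC in MDA-MB-436, 2 without PROTAC library 2. Replicate numbers did not pair the samples (same-number correlations -0.081 to 0.075, and 4 of 12 libraries matched their own number best); with the replicate block 2 members fell in that comparison, RPA1 being the second.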
